A study of Caenorhabditis elegans with 43 samples.

Results

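Fatty acid desaturases insert double bonds into fatty acids, and fatty acid elongases lengthen them. The genes described here were the 7 desaturase genes fat-1 to fat-7 and the elongase genes elo-1, elo-2 and elo-5 of Caenorhabditis elegans. They were taken from a list of names with no threshold on a measured value, although earlier results of these data were known when the list was made, and all 10 were found among the 20182 genes of the count table. RNA from whole worms was depleted of ribosomal RNA and sequenced in 43 libraries, 1 for each strain and hour of growth at 25 °C, at steps of 2 h. The strains were let-7(n2853) (10 libraries, 18 to 36 h), lin-41(xe11) (11, 18 to 38 h), their combination lin-41(xe11);let-7(n2853), called the double mutant (11, 18 to 38 h), and the wild type N2 (11, 18 to 38 h). let-7 encodes a microRNA needed for larval cells to mature, n2853 is a temperature-sensitive point mutation in it, and the double mutant carries the same n2853 allele. lin-41, a main target of let-7, codes for a TRIM-NHL protein that binds RNA, and xe11 changes its let-7 sites. All strains were released from arrest in the first larval stage by feeding on Escherichia coli NA22, so the hours cover late larval growth up to the young adult.

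As background, worms make polyunsaturated fatty acids themselves, which mammals cannot do from saturated precursors. FAT-5, FAT-6 and FAT-7 insert the earliest double bond and make monounsaturated fatty acids, FAT-5 mainly from palmitic acid and FAT-6 and FAT-7 mainly from stearic acid. FAT-2 turns oleic acid into linoleic acid, FAT-1 turns omega-6 into omega-3 fatty acids, and FAT-3, ELO-1 and FAT-4 carry the chain on to arachidonic and eicosapentaenoic acid. ELO-2 lengthens palmitic acid and also acts on polyunsaturated chains, and ELO-5 lengthens the branched chains that larvae need for growth. Much of this synthesis takes place in the intestine, the main store of fat in the worm.

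Libraries of let-7(n2853) held 22.9 to 32.9 M counts, those of lin-41(xe11) 11.2 to 16.5 M, those of the double mutant 12.7 to 24.99 M and those of N2 12.6 to 16.1 M (M, 1000000). Levels are given in CPM, counts per 1000000 of the library size after scaling by the trimmed mean of M-values (TMM). In the deposited log2 table the libraries of let-7(n2853) are scaled to a total of 26.1 M counts and those of the other strains to 12.02 M, so let-7(n2853) stands apart in that table. Its libraries were also mostly the deepest, except that 1 double mutant library (24.99 M counts at 22 h) was deeper than the let-7(n2853) library of 18 h (22.9 M). Strain and any batch of those libraries cannot be told apart in comparisons with let-7(n2853). lin-41 RNA, read as a check of the labels, ran from 104.03 to 162 CPM at 28 to 36 h in let-7(n2853), from 39.9 to 108 CPM in lin-41(xe11), from 44.6 to 104.01 CPM in the double mutant and from 27.7 to 45.0 CPM in N2 (before TMM scaling). All 11 listed intestinal markers with a row in the table, among them elt-2 and ges-1, were above 0 in every library. In bulk RNA, fewer cells of a type and less RNA per cell cannot be told apart.

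The files list fat-1 to fat-7 as WBGene00001393 to WBGene00001399 and elo-1, elo-2 and elo-5 as WBGene00001239, WBGene00001240 and WBGene00001243. In the WBcel235 annotation, 8 members lie on chromosome IV and the other two, fat-5 (17725004 to 17726818) and fat-7 (7151353 to 7153146), on chromosome V. fat-1 (13315644 to 13318811) and fat-2 (13323873 to 13326395) are neighbours on the plus strand, 5061 bp apart with no coding gene between them. fat-4 (9799429 to 9802226) and fat-3 (9803023 to 9806119) are also plus-strand neighbours, separated by 796 bp. elo-1 (9526366 to 9528336) lies on the plus strand, and fat-6 (11913692 to 11915687), elo-2 (17466062 to 17467408) and elo-5 (5374616 to 5377117) lie on the minus strand of the same chromosome. Exons of fat-5 overlap twk-42, and exons of elo-5 overlap F41H10.3, each on the opposite strand. twk-42 stood at 9.12 to 23.7 CPM and F41H10.3 at 52.5 to 91.7 CPM over 18 to 36 h (before TMM scaling). No source used here gives the strand setting of the counting, so reads of each pair cannot be told apart. fat-6 and fat-7 are close paralogs, and reads that both could have given may have been split between them, so their values are uncertain in that respect.

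Per kilobase of exon, elo-5 had the highest level in all strains, at 673 ± 159 CPM per kb in let-7(n2853) (SD, n = 10), 555 ± 114 in lin-41(xe11), 590.0 ± 180.5 in the double mutant and 623 ± 87.5 in N2 (n = 11 each). In N2 fat-2 (349.9 ± 59.5 CPM per kb) and fat-6 (342 ± 55.9) came next and did not differ beyond their spread, since fat-2 was above fat-6 in 4 of 11 libraries. elo-1 followed with 285 ± 48.9 CPM per kb and was below fat-6 in 11 of 11 libraries. fat-4 (219 ± 47.6), elo-2 (212 ± 55.3) and fat-1 (203 ± 30.9) formed a group of near-equal levels in N2, and neighbours in it differed by less than their SD. fat-3 had 109 ± 37.3, fat-5 23.2 ± 17.4 and fat-7 0.762 ± 1.03 CPM per kb. In lin-41(xe11) and the double mutant elo-1 also ranked 4 of 10 per kb, whereas in let-7(n2853) elo-2 ranked 4 (261 ± 57.1 CPM per kb) and elo-1 ranked 6 (205 ± 27.9). These ranks in let-7(n2853) were not well separated. elo-2 was above fat-4 in 7 of 10 libraries, fat-4 above elo-1 in 6 and elo-1 above fat-1 in 5, with gaps below the larger SD.

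**Figure D1:**
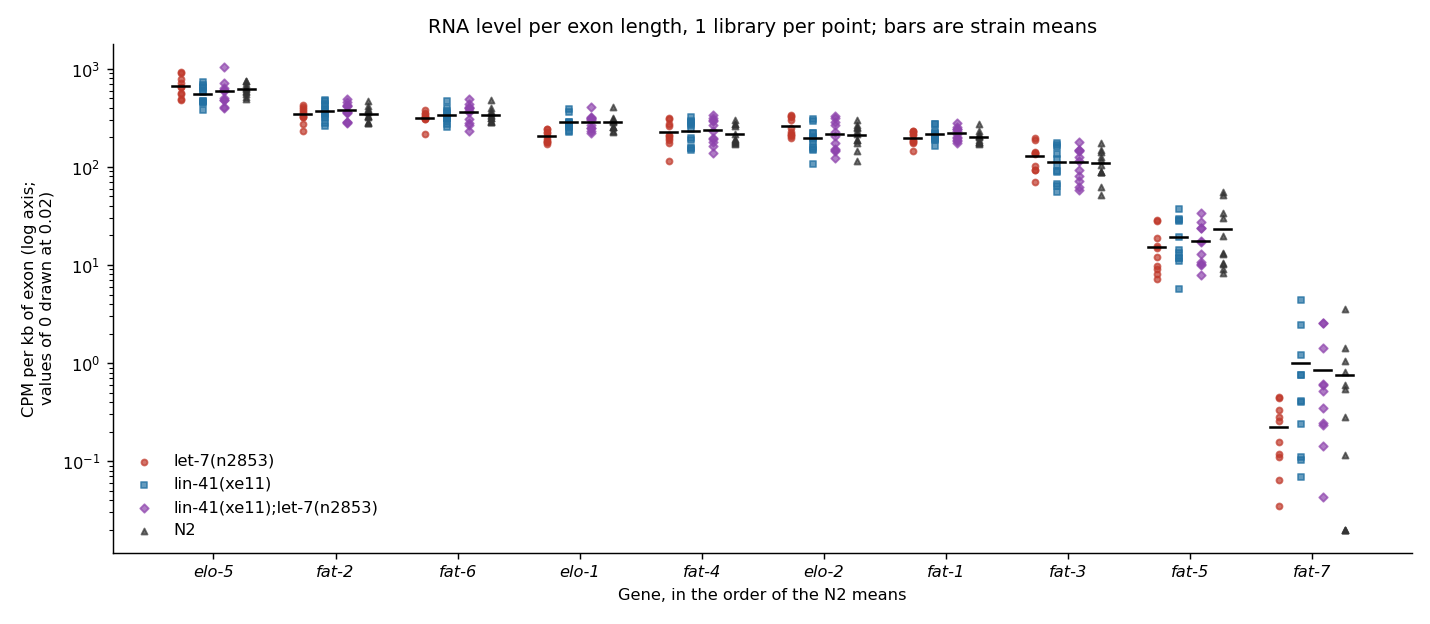
Level per kilobase of exon of each gene (CPM per kb, log axis) in every library, with strain means as bars; genes run in the order of the N2 means. elo-5 was highest in every strain and fat-7 lowest, and elo-1 ranked 6 in let-7(n2853) against 4 in N2. In let-7(n2853) elo-1 and the genes next to it in rank differed by less than the larger SD.

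Among the 3 desaturase genes for monounsaturated fatty acids, fat-6 carried nearly all of the RNA. It made up 91.7 to 97.7% of their summed level per kb in let-7(n2853), from 88.8 to 98.4% in lin-41(xe11), 89.9 to 98.0% in the double mutant and 85.7 to 97.8% in N2. fat-6 had 250.04 to 440.02 CPM in let-7(n2853), with a median of 371, against 332 to 555 CPM in N2, with a median of 388. Its highest library was that of 32 h in all 4 strains. fat-7 never passed 1.28% of that sum in any library.

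Among the 9 members with a mean of at least 1 CPM, fat-5 had the highest ratio of its highest to its lowest library in every strain, from 3.995 in let-7(n2853) up to 6.73 in N2. In let-7(n2853) it had 10.1, 31.005, 16.6, 7.87 and 8.84 CPM from 18 to 26 h and 21.0, 13.2, 10.9, 17.3 and 31.4 CPM from 28 to 36 h. In lin-41(xe11) it had 21.3, 32.3, 15.7, 6.21 and 12.2 CPM, then 14.8, 13.1, 13.004, 30.99 and 32.01 CPM, and 41.4 CPM at 38 h. The double mutant had 11.2, 30.0, 19.4, 11.03 and 11.8 CPM, then 18.7, 8.82, 14.2, 26.0 and 26.2 CPM, and 37.1 CPM at 38 h. In N2 they were 11.4, 21.6, 37.7, 14.2 and 9.15 CPM, then 14.5, 11.3, 10.1, 61.5 and 33.2 CPM, and 57.5 CPM at 38 h. In every strain fat-5 was high at 20 or 22 h, low at 24 and 26 h and high again from 36 h on, and the strains overlapped. At 34 h N2 stood far above all mutants.

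fat-7, the other stearic acid desaturase, was close to the limit of detection, with counts of 0 to 62 per library. Its mean was under 1 CPM, the minimum for testing, so it was the 1 member not tested. From 28 to 36 h it had 0.133, 0.319, 0.374, 0.492 and 0.502 CPM in let-7(n2853), 0.461, 0.855, 2.75, 1.35 and 4.96 CPM in lin-41(xe11), 0.262, 0.579, 1.59, 2.90 and 2.89 CPM in the double mutant, and 0.318, 0.675, 1.62, 0.923 and 3.98 CPM in N2. From 18 to 26 h no library passed 0.692 CPM, and the N2 libraries of 18, 20 and 24 h had 0 counts. fat-7 was thus highest at 34 or 36 h in lin-41(xe11), the double mutant and N2, and at those hours the 4 strains' lowest values were those of let-7(n2853). In the fit without the filter on low counts, late fat-7 differed by -1.84 ± 0.41 between let-7(n2853) and N2 on the log2 scale (edgeR, adjusted p = 0.00211), and by 2.07 ± 0.40 between the double mutant and let-7(n2853) (adjusted p = 0.00055). Late libraries held only 4 to 14 counts of fat-7 in let-7(n2853) and 5 to 49 in N2. Matched to the N2 course by their other genes, the let-7(n2853) libraries of 34 and 36 h were 1.1 and 2.3 h behind their label. The part of this delay in the fat-7 difference was not tested. The summed level of 10 germline markers moved with fat-7 over the 43 libraries (Pearson r = 0.77) and that of 8 neuronal markers ran against it (r = -0.74). Of these germline markers 6 were called lower late in let-7(n2853) and 0 higher, where 23.05% of all genes were called (DESeq2 called 7 of the markers and limma 4). Their part in the values of fat-7 was not tested.

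fat-2, which makes linoleic acid, and fat-1, the omega-3 desaturase, moved together over the hours. Over all libraries fat-2 ran from 289 to 533 CPM in let-7(n2853) (median 431), from 326 to 603 in lin-41(xe11) (median 469), from 351 to 619 in the double mutant (median 460.2) and from 351 to 587 in N2 (median 419.6). fat-1 ran from 208 to 333 CPM in let-7(n2853) (median 281), from 234 to 391 in lin-41(xe11) (median 295), from 247 to 399 in the double mutant (median 307) and from 242 to 390.4 in N2 (median 289). The strains overlapped throughout for both genes. Across the 43 libraries the log2 levels of the 2 neighbours had a Pearson r of 0.86. fat-4, which is no neighbour of either, had 0.87 with fat-1 and 0.89 with fat-2. The 28 pairs of members other than fat-5 and fat-7 ran from 0.26 to 0.89.

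As the worms grew, fat-3, the desaturase gene for the step after linoleic acid, had a downward slope in all 4 strains, called in 3 of them (below). It had 280.0, 200.5, 103.5, 209 and 294 CPM from 18 to 26 h and 152, 139, 210.5, 206 and 139 CPM from 28 to 36 h in let-7(n2853). N2 had 259, 174, 158, 188 and 224 CPM, then 133, 132, 211, 134 and 92.3 CPM, and 77.5 CPM at 38 h. Its neighbour fat-4, which acts later in the chain, ran from 175 to 481 CPM in let-7(n2853) (median 321), from 229 to 496 in lin-41(xe11) (median 378), from 211 to 518 in the double mutant (median 357) and from 261 to 462 in N2 (median 294). fat-3 and fat-4 had an r of 0.77 over the 43 libraries, below that of fat-3 with elo-2 (0.87).

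elo-5 had 523, 442, 455, 595 and 725 CPM from 18 to 26 h in let-7(n2853) and 605, 517, 863, 828 and 655 CPM from 28 to 36 h. N2 had 570.03, 452, 604, 595 and 652 CPM, then 509, 547, 689, 689 and 478 CPM. The double mutant library of 32 h stood out at 960.4 CPM, with 365 to 667 CPM in the other 10 libraries. The ranges of all strains overlapped.

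**Figure D2:**
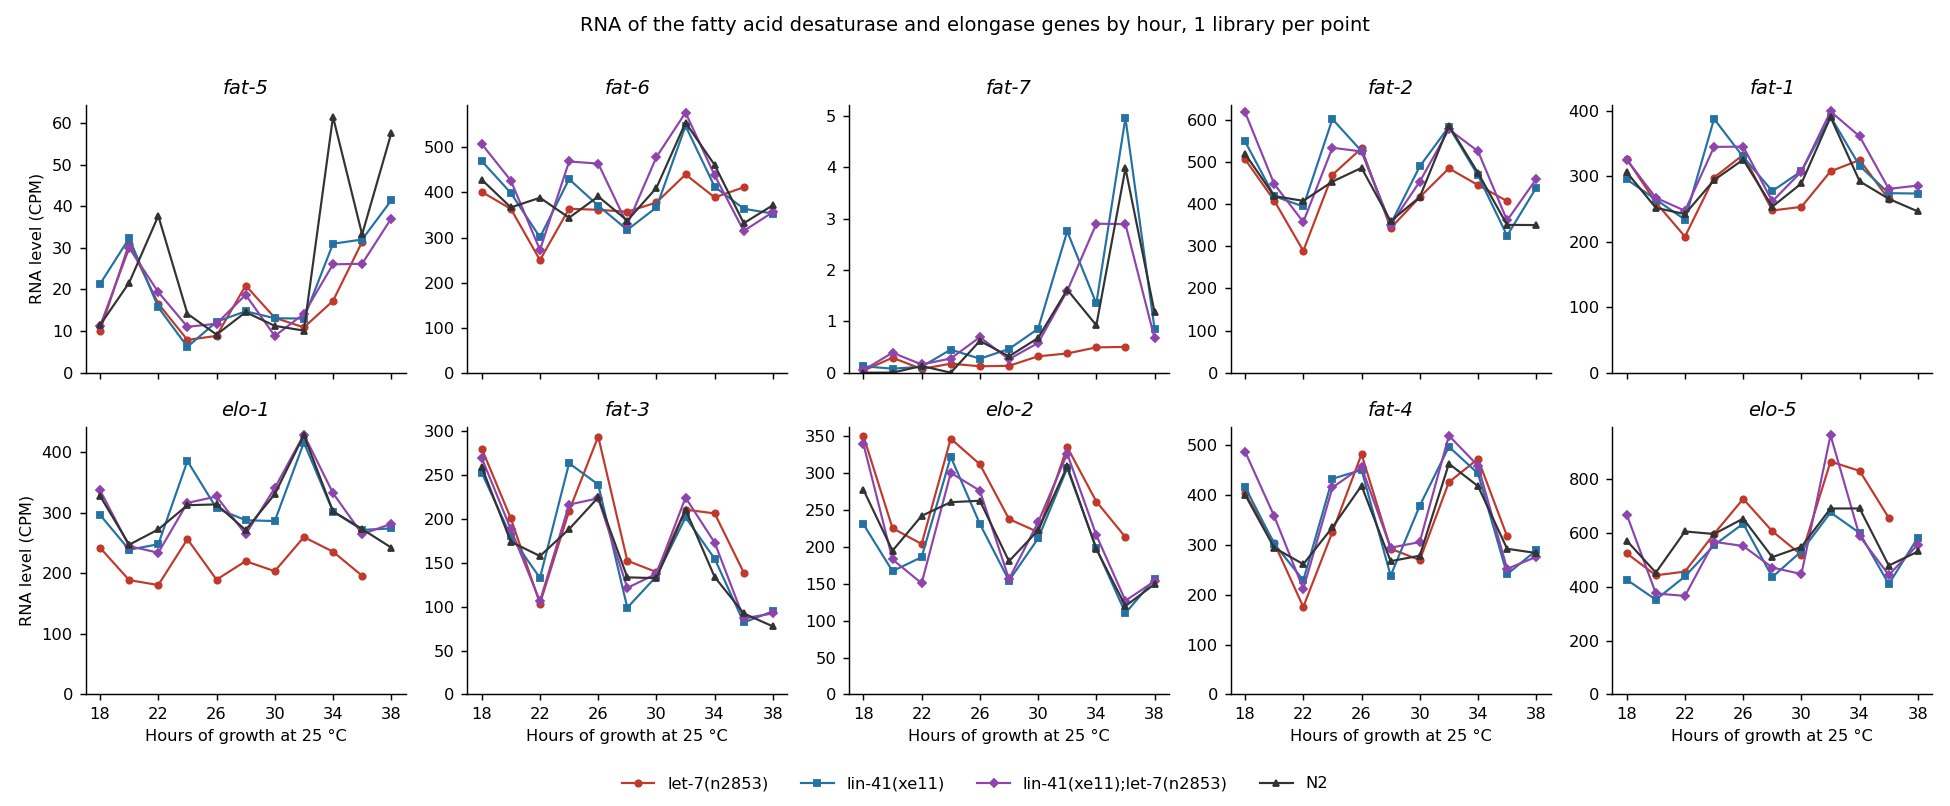
Level in CPM (y axis, starting at 0) of each gene by hours of growth (x axis) in the 4 strains, 1 library per point. elo-1 in let-7(n2853) stayed at or below 260.05 CPM at every hour, while most genes showed highs near 18, 24 to 26 and 32 to 34 h and fat-5 was low at 24 and 26 h.

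Strain effects were tested over all 13295 genes with a mean of at least 1 CPM, with the hour as a block and 5 hours per window, the early window from 18 to 26 h and the late window from 28 to 36 h. A gene was called at an adjusted p below 0.05 (edgeR's quasi-likelihood test, Benjamini-Hochberg over all genes tested), and changes are log2 fold changes ± standard error. In let-7(n2853), 1 of the 9 tested members was called early and 2 late, where 18.5% and 23.05% of all genes were called. These shares are near or below the background of the strain. The members' median change was -0.07 early and -0.04 late, beside a median of all genes of -0.00 and -0.02.

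elo-1, the elongase gene for polyunsaturated chains, was lower in let-7(n2853) at 5 of 5 hours in both windows. Early it had 242, 189, 181, 257 and 189.7 CPM in let-7(n2853), against 328, 247, 273, 313 and 314 CPM in N2. Late it had 220.2, 204, 260.05, 236 and 196 CPM in let-7(n2853), against 272, 331, 428, 303 and 273 CPM in N2. The late groups did not overlap, and the early groups overlapped at the edges. Window means were 212 ± 35.0 and 223 ± 25.7 CPM in let-7(n2853) and 295 ± 33.6 and 321 ± 64.6 CPM in N2 (SD, n = 5 each). The change was -0.48 ± 0.07 early (adjusted p = 2.75e-05) and -0.51 ± 0.07 late (adjusted p = 9.39e-06), a level of 0.72 and 0.70 times that of N2. Without the hour as a block the early change was as large (-0.47) but its error was wider (0.15), and it was not called (adjusted p = 0.084).

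elo-1 was not called in the double mutant, which carries the same let-7 allele, or in lin-41(xe11). In the double mutant it had 337, 245, 234, 316 and 327 CPM early and 265, 341, 429, 333 and 265 CPM late. lin-41(xe11) had 297, 239, 248, 386 and 307 CPM early and 288, 286, 416, 302 and 272 CPM late. Both strains overlapped with N2 in both windows. Late changes against N2 were -0.03 ± 0.07 in lin-41(xe11) (adjusted p = 0.925) and 0.02 ± 0.07 in the double mutant (adjusted p = 0.934). The direct late comparison of the double mutant with let-7(n2853) gave 0.53 ± 0.07 (adjusted p = 5.83e-06), with the double mutant higher at 5 of 5 hours.

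The intestinal markers also read lower in let-7(n2853): 4 of the 11 tested were called early, all lower, and 6 late, with 5 lower and 1 higher. Their summed level ran from 3738 to 5119 CPM in let-7(n2853) over both windows, against 4398 to 6647 CPM in N2. Over the 43 libraries elo-1 had an r of 0.83 with that sum, the highest of the 10 members. Scaling libraries to that sum in place of TMM moved all genes, to a median of 0.31 early and 0.25 late in let-7(n2853) and of -0.43 between the double mutant and let-7(n2853). Under it elo-1 was still called in let-7(n2853), at -0.17 ± 0.06 early and -0.24 ± 0.06 late, and the difference between the double mutant and let-7(n2853) was not (0.12, adjusted p = 0.0861). Of 10 germline markers 2 were called lower early and 6 late, and of 6 muscle markers 3 in each window, with 0 of either list higher, beside the 18.5% and 23.05% of all genes called. Of 8 neuronal markers 1 was called higher and 2 lower early, and 2 higher and 2 lower late, with median changes of 0.08 and 0.10. Of 10 epidermal markers 1 was called lower early and 1 higher late. The part of these tissues in the change of elo-1 was not tested.

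elo-2, whose enzyme lengthens palmitic acid, was higher in the late window of let-7(n2853). Early it had 350.3, 225, 204, 347 and 312 CPM in let-7(n2853), against 277, 195, 242, 261 and 262 CPM in N2. Late it had 238, 219.9, 335, 261 and 213 CPM in let-7(n2853), against 181, 223, 309, 197 and 119.8 CPM in N2. The groups overlapped in both windows. The change was 0.19 ± 0.11 early (adjusted p = 0.268) and 0.36 ± 0.11 late (adjusted p = 0.023), higher at 4 of 5 late hours. The late call was lost without the block (0.30, adjusted p = 0.726), without the libraries of 34 h (0.35, adjusted p = 0.0755) or of 36 h (0.24, adjusted p = 0.185), with the compared strains only (0.34, adjusted p = 0.0751), and with the libraries' estimated age in place of the hour (-0.05, adjusted p = 0.915). This age is the hour of the N2 course that a library's other genes match best. With age in place of the hour the standard error of late elo-2 was wider, at 0.22 against 0.11. The let-7(n2853) libraries were at or behind their labelled hour by this age, by 1.1 h at 34 h and 2.3 h at 36 h. The elo-2 difference was widest at 36 h (0.83), and the part of the delay in it was not tested. elo-1 was called with age in place of the hour in both windows (-0.38 and -0.66).

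In lin-41(xe11) elo-2 had 231, 167, 186, 322 and 231 CPM early and 154, 211, 307, 198 and 110.3 CPM late. Double mutant libraries had 339.5, 183, 151, 300.2 and 276 CPM early and 156, 233, 326, 216 and 127 CPM late. Late changes against N2 were -0.08 ± 0.11 and 0.03 ± 0.11 in these strains, and the double mutant against let-7(n2853) gave -0.33 ± 0.11 (adjusted p = 0.0377). That last call was also lost without the block (-0.26, adjusted p = 0.797), with age in place of the hour (-0.13, adjusted p = 0.785), and without the libraries of 20, 28, 34 or 36 h (-0.34 to -0.22, adjusted p = 0.0539 to 0.23). With the compared strains only it was -0.32 (adjusted p = 0.0607).

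The count of elo-2 over the count of elo-1 within a library does not depend on how libraries are scaled. This ratio was looked at after the values of both genes had been seen. It was 1.45, 1.19, 1.13, 1.35 and 1.64 from 18 to 26 h and 1.08, 1.08, 1.29, 1.11 and 1.09 from 28 to 36 h in let-7(n2853). In N2 it was 0.846, 0.787, 0.887, 0.833 and 0.836, then 0.665, 0.672, 0.721, 0.651 and 0.438. The 2 strains did not overlap, and at every hour more reads came from elo-2 than from elo-1 in let-7(n2853) and fewer in N2. lin-41(xe11) ran from 0.406 to 0.835 and the double mutant from 0.480 to 1.01, and both overlapped with N2. The mean log2 difference from N2 was 0.77 ± 0.25 in let-7(n2853) (SD over 10 hours, higher at 10 of 10), -0.09 ± 0.14 in lin-41(xe11) (higher at 4 of 10) and -0.00 ± 0.20 in the double mutant (higher at 6 of 10). Since the pair was picked for opposite changes in let-7(n2853), these values are a description and carry no test.

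**Figure D3:**
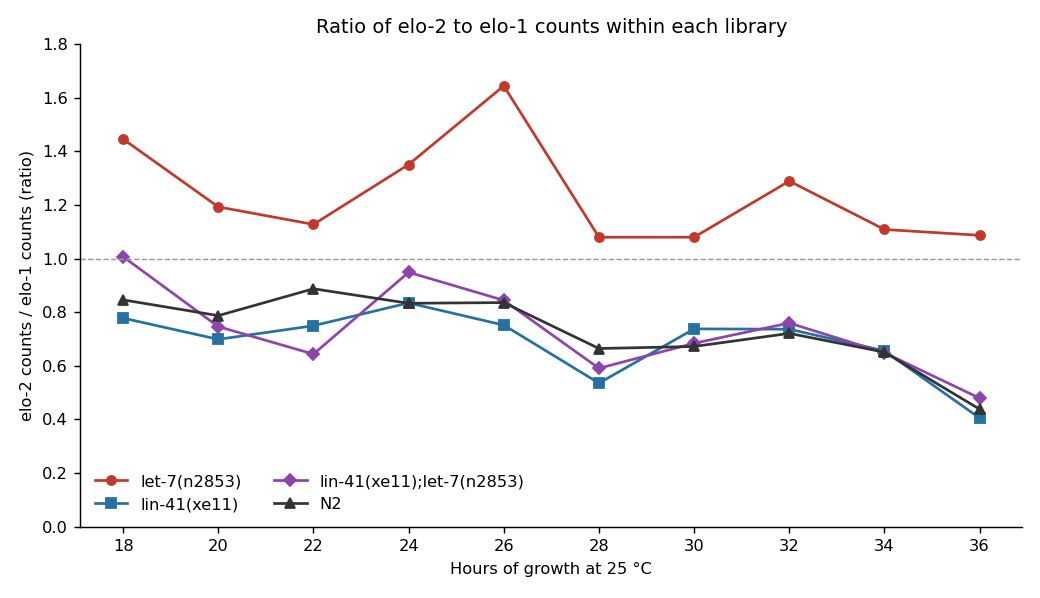
Ratio of elo-2 counts to elo-1 counts (y axis, starting at 0) in each library by hours of growth (x axis), with a dashed line at 1. All 10 let-7(n2853) libraries lie between 1.08 and 1.64, above the N2 libraries at 0.438 to 0.887, which lin-41(xe11) and the double mutant overlap.

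The remaining members were not called in let-7(n2853) against N2. Of these, fat-3 was nearest late, at 0.30 ± 0.12 (adjusted p = 0.0598, higher at 4 of 5 hours), followed by elo-5 at 0.24 ± 0.11 (adjusted p = 0.119, higher at 4 of 5). limma on the deposited log2 values, which are scaled to totals without TMM, called both, at 0.37 and 0.32. By limma a larger share of all late calls was higher in let-7(n2853) than by edgeR (below). fat-1, fat-2, fat-4 and fat-6 had late changes between -0.08 and 0.06, with standard errors of 0.06 to 0.10. fat-5 had -0.40 ± 0.27 early and -0.26 ± 0.27 late, with the widest errors of the set. The late effect minus the early effect was called for 0 of the 9 members, where 0.0827% of all genes were called, with 0 members at an unadjusted p below 0.05 and 0 by DESeq2 or limma.

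In lin-41(xe11), 0 of the 9 tested members were called early and 0 late, where 0.0677% and 0.361% of all genes were called. 1 member early and 0 late had an unadjusted p below 0.05, and DESeq2 and limma called 0 in both windows. That member was elo-5, at -0.28 ± 0.11 and lower at 5 of 5 early hours (adjusted p = 0.693). For the double mutant 0 members were called early and 0 late as well, where 0.143% and 0.888% of all genes were called. There 0 members in either window had an unadjusted p below 0.05, and DESeq2 and limma called 0. Late minus early was also called for 0 members in either of these 2 strains, by edgeR, DESeq2 and limma alike, with 0 at an unadjusted p below 0.05, where 0.0226% and 0.00752% of all genes were called. Late changes of the 9 members ran from -0.18 to 0.08 in lin-41(xe11) and from -0.30 to 0.11 in the double mutant, in both cases with fat-5 at the low end.

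The late comparison of the double mutant with let-7(n2853) called 3 of the 9 members, where 23.02% of all genes were called. Besides elo-1 and elo-2, fat-1 was called, at 0.19 ± 0.06 (adjusted p = 0.0257) and higher in the double mutant at 5 of 5 hours. It had 262, 307, 399, 361 and 281 CPM in the double mutant and 248, 253, 308, 325 and 265 CPM in let-7(n2853), and these ranges overlapped. The fat-1 call was lost without the block (0.20, adjusted p = 0.594), with age in place of the hour (0.24, adjusted p = 0.213), without the filter on low counts (0.18, adjusted p = 0.058) and by limma (0.10, adjusted p = 0.239). It was also lost without the libraries of 30 h (0.17, adjusted p = 0.11) or of 32 h (0.15, adjusted p = 0.14). Scaled to the intestinal markers, fat-1 stood at -0.22, where the median of all genes stood at -0.43. The double mutant and lin-41(xe11) differed late in 0 of the 9 members, with 0 at an unadjusted p below 0.05 and 0 by DESeq2 or limma, where 0.0903% of all genes were called. These comparisons share libraries, the N2 libraries or those of let-7(n2853), and are not independent of each other.

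**Figure D4:**
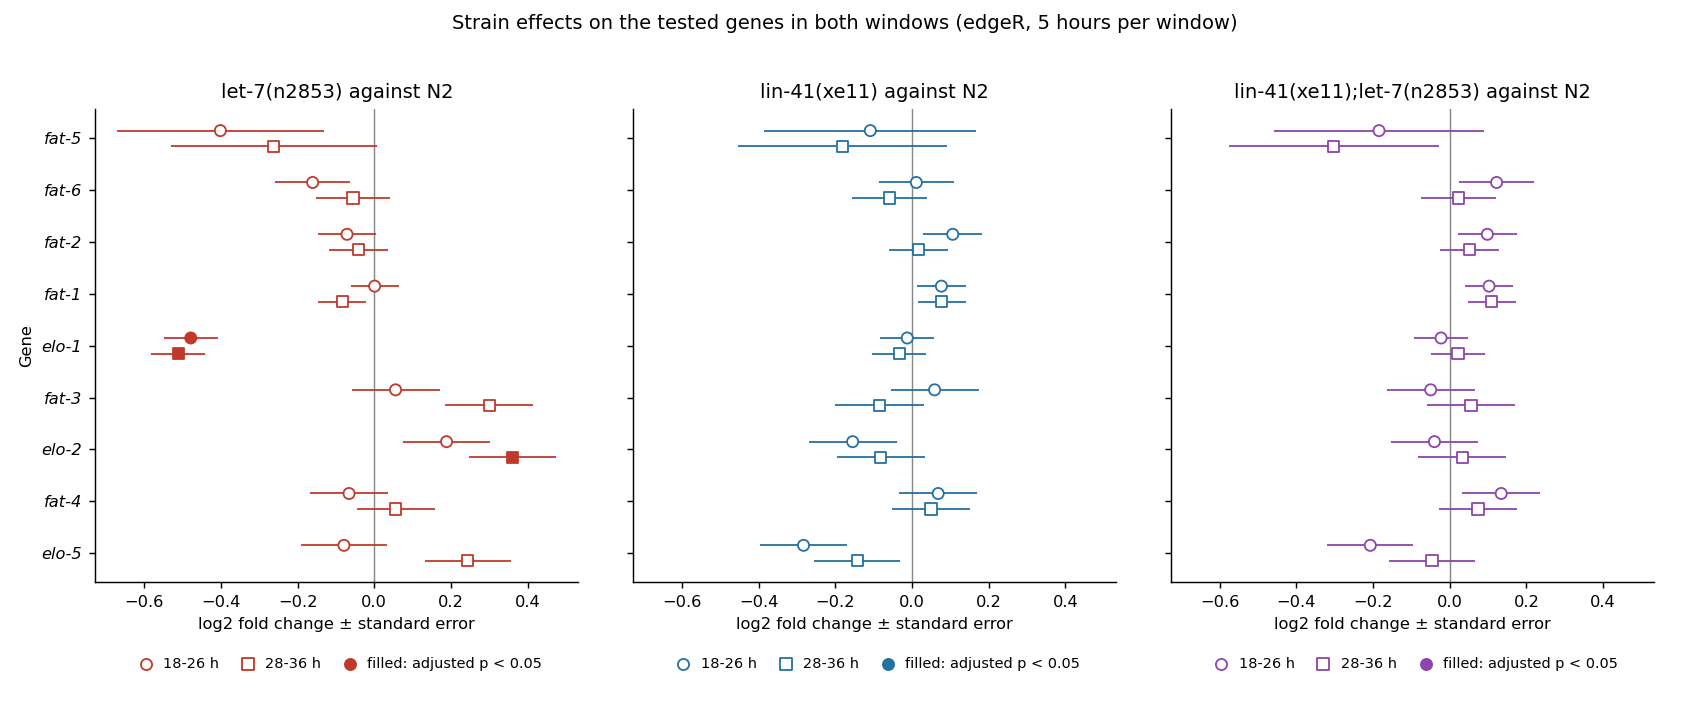
log2 fold change against N2 (x axis, with standard errors) of the 9 tested genes in each mutant, circles for 18 to 26 h and squares for 28 to 36 h; filled symbols passed an adjusted p below 0.05. elo-1 in both windows and elo-2 in the late window of let-7(n2853) are the filled ones, and fat-5 has the widest errors.

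Larval molts recur at about 8 h at this temperature, and the members were examined for a rhythm of that period. Each strain's course was fitted with a slope plus a sine wave of free phase and 8 h period. The rhythm was called for 6 of the 9 members in let-7(n2853), where 25.9% of all genes were called, and for 7 in lin-41(xe11), where 17.8% were. It was called for 0 in the double mutant, where 0% of all genes were called, and for 2 in N2, where 3.13% were. In the double mutant 7 members had an unadjusted p below 0.05 and the smallest adjusted p was 0.0511. Those called were fat-1, fat-3, fat-4, fat-5, elo-2 and elo-5 in let-7(n2853), fat-1 to fat-4 with elo-1, elo-2 and elo-5 in lin-41(xe11), and fat-4 and elo-2 in N2. With 1 library per hour and 6 or 7 residual degrees of freedom these counts move readily, and leaving out 1 hour gave 5 to 7, 3 to 7, 0 to 4 and 0 to 4 members in let-7(n2853), lin-41(xe11), the double mutant and N2.

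A fit of all 43 libraries with 1 common rhythm, added after these results were seen, called all 9 tested members, where 57.8% of all genes were called. In that fit libraries of the same hour count as independent although they share the hour, so its p-values are too small. A difference in rhythm between strains was called for 0 of the 9, where 0% of all genes were called, and the smallest unadjusted p was 0.104, for elo-2. The fitted peak-to-trough range was 1.02 on the log2 scale for fat-3, 0.95 for elo-2, 0.93 for fat-4, 0.65 for elo-5, 0.60 for fat-2, 0.52 for fat-1, 0.51 for elo-1 and 0.44 for fat-6. These 8 peaked within 1 h of each other, between 24.4 h for elo-2 and 25.2 h for fat-4 and again between 32.4 and 33.2 h. The fitted wave of fat-5 had a range of 1.23 and peaks at 20.2 and 28.2 h, near the others' fitted troughs. In fits of single strains its rhythm was called in let-7(n2853) and not in lin-41(xe11), the double mutant or N2 (edgeR, adjusted p = 0.283, 0.327 and 0.848). In N2 fat-5 was highest at 34 h (61.5 CPM), and at 28 h it was at its median of 14.5 CPM.

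In N2, elo-2 stood at 277 CPM at 18 h, 195 CPM at 20 h, 262 CPM at 26 h, 181 CPM at 28 h and 309 CPM at 32 h. fat-5 in the same libraries stood at 11.4, 21.6, 9.15, 14.5 and 10.1 CPM. The 2 genes did not always run against each other, since at 22 h both were above their 20 h level (242 CPM of elo-2 and 37.7 CPM of fat-5), at 36 h both were below their 34 h level and at 38 h both were above their 36 h level. Among the 8 members other than fat-5 and fat-7, the 28 pairwise correlations of log2 level over the 43 libraries ran from 0.26 to 0.89, with a median of 0.65. fat-5 with those 8 gave -0.69 to -0.21. Within strains the medians over the 28 pairs were 0.69, 0.73, 0.84 and 0.72 in let-7(n2853), lin-41(xe11), the double mutant and N2. These are descriptions over libraries that share hours and scaling.

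**Figure D5:**
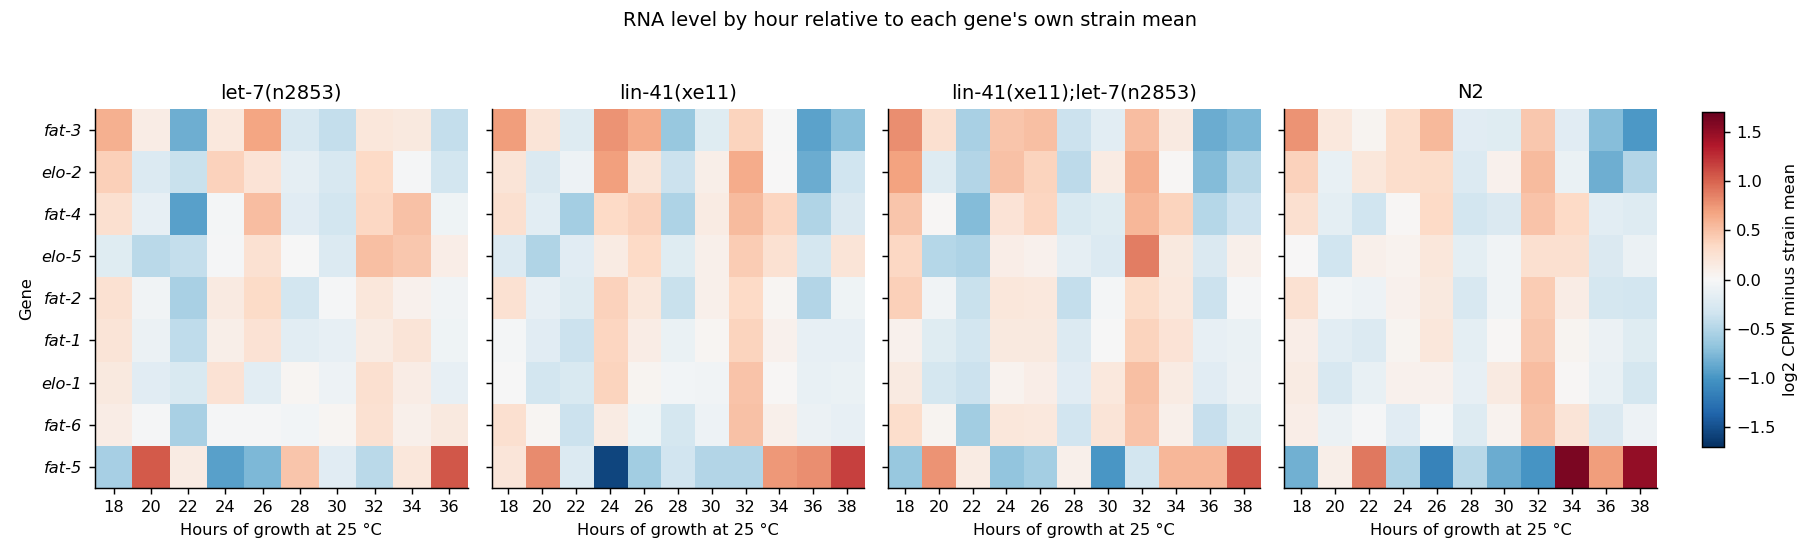
log2 CPM of each tested gene minus its strain mean (colour), by hour, for the 4 strains. The upper 8 rows are mostly high near 18, 24 to 26 and 32 h and low at 20 to 22 and 28 h. fat-5 in the bottom row often, but not always, runs against them.

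Marker genes of the epidermis, which builds the cuticle at each molt, were also high and low in turn. Their summed level in N2 was 3676 CPM at 18 h, 6357 CPM at 20 h, 3554 CPM at 24 h, 6010 CPM at 28 h, 2079 CPM at 32 h and 5522 CPM at 36 h. fat-5 was positively correlated with it over the 43 libraries (r = 0.49) and elo-2 negatively (r = -0.54). The summed germline markers ran from 387 to 696 CPM early and 861 to 1615 CPM late in let-7(n2853), against 431 to 804 CPM and 909 to 2158 CPM in N2. Correlation with that sum ran from -0.61 for fat-3 to 0.77 for fat-7. The part of tissue composition in the members' time courses was not tested.

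Trends beneath the rhythm were called for 1 of the 9 members in let-7(n2853), for 3 in lin-41(xe11), for 1 in the double mutant and for 2 in N2, where 49.3%, 55.02%, 49.6% and 60.3% of all genes were called. The members' share was thus below the background in each strain. fat-3 fell by 0.10 ± 0.02 per 2 h in lin-41(xe11) (adjusted p = 0.000939), by 0.08 ± 0.02 in the double mutant (adjusted p = 0.0197) and by 0.11 ± 0.02 in N2 (adjusted p = 0.000979), on the log2 scale. In let-7(n2853) its slope was -0.04 ± 0.02 (adjusted p = 0.169). Without the library of 22 h the fall of fat-3 was called in let-7(n2853) as well (-0.06 ± 0.02, adjusted p = 0.0229). elo-2 fell by 0.05 ± 0.01 per 2 h in lin-41(xe11) and by 0.07 ± 0.02 in N2, and elo-5 rose by 0.08 ± 0.01 in let-7(n2853) and by 0.05 ± 0.02 in lin-41(xe11). With the hour alone, without the rhythm, the calls of fat-3 in the double mutant, of elo-2 in lin-41(xe11) and N2 and of elo-5 in lin-41(xe11) were lost (adjusted p = 0.0885, 0.391, 0.103 and 0.207). Leaving out 20, 34 or 36 h ended the call of fat-3 in the double mutant (-0.07 to -0.05), leaving out 20, 34, 36 or 38 h that of elo-2 in lin-41(xe11) (-0.04 to -0.03), and leaving out 18, 20, 22, 30, 34 or 38 h that of elo-5 in lin-41(xe11) (0.04 to 0.05). The elo-2 call in lin-41(xe11) was also lost without the filter on low counts (-0.04, adjusted p = 0.0767). Whether slopes differ between strains was not tested.

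By Pearson correlation of log2 level over the 43 libraries, the genes most like each member were gba-1 for fat-1 (r = 0.93), K11H3.3 for fat-2 (0.92), C45B11.6 for fat-3 (0.97), cpr-9 for fat-4 (0.95), nmy-1 for fat-5 (0.85) and ver-3 for fat-6 (0.84). They were ech-4 for fat-7 (0.86), adk-1 for elo-1 (0.93), dpy-6 for elo-2 (0.92) and elo-6 for elo-5 (0.88). elo-6 is the other elongase gene for branched chains. qdpr-1 was among the 3 most alike for fat-2, fat-4 and fat-6.

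The 63 other genes listed for the pathway were partners of synthesis and elongation, regulators of desaturases, beta oxidation, fatty acid binding, phosphatidylcholine synthesis and storage of triglyceride, and 61 of them were tested. In let-7(n2853) 4 were called higher and 14 lower early, and 10 higher and 9 lower late, 29.5% and 31.1% of those tested beside 18.5% and 23.05% of all genes. Against N2, 0 were called in either window in lin-41(xe11) or the double mutant by edgeR and 0 by limma, with 8 to 10 at an unadjusted p below 0.05. DESeq2 called 1 early and 0 late in lin-41(xe11), and 1 early and 2 late in the double mutant.

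Among the 14 partners in let-7(n2853), 1 was called higher and 5 lower early, and 2 higher and 2 lower late. Of all genes, 18.5% were called early and 23.05% late. cytb-5.1, a cytochrome b5 of the kind that passes electrons to desaturases, had 206 ± 42.4 CPM late in let-7(n2853) and 146 ± 27.8 CPM in N2, a change of 0.50 ± 0.10 (adjusted p = 0.000736). fasn-1, the fatty acid synthase, had 3219 ± 1261 CPM late in let-7(n2853) and 2179 ± 706 CPM in N2 (0.56 ± 0.16, adjusted p = 0.0131). The double mutant, where fasn-1 was not called, had 3191 ± 1560 CPM late, close to let-7(n2853). cytb-5.2, another cytochrome b5 gene, changed by -0.29 ± 0.06 early and -0.22 ± 0.06 late. elo-3, a further elongase gene, fell by 0.40 ± 0.09 early.

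Of the 11 listed regulators, 1 was called higher and 1 lower in each window of let-7(n2853), beside 18.5% of all genes early and 23.05% late. The regulators' share was near that background early and below it late. nhr-80, a nuclear hormone receptor that promotes desaturase transcription, rose by 0.33 ± 0.08 early and 0.32 ± 0.08 late. It had 33.2 ± 2.45 CPM late in let-7(n2853) and 27.0 ± 6.05 CPM in N2. mdt-15, a gene for a Mediator subunit, fell by 0.22 ± 0.08 early and 0.26 ± 0.08 late. fat-5, fat-6 and fat-7 are known targets of these factors, and the 2 tested among them, fat-5 and fat-6, were not called in either window. fat-7 was called lower late in the fit without the filter, as given above.

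Among the 16 genes of beta oxidation, the breakdown of fatty acids, 2 were called higher and 4 lower early and 5 higher and 4 lower late in let-7(n2853). The background of all genes called, 18.5% early and 23.05% late, also stands beside the lists that follow. acs-2, an acyl-CoA synthetase gene induced by fasting, rose by 1.47 ± 0.19 early and 1.74 ± 0.21 late. It had 22.9 ± 4.23 and 14.2 ± 4.48 CPM in let-7(n2853), against 8.61 ± 3.12 and 4.56 ± 3.03 CPM in N2 (SD, n = 5 each). ech-1.1 fell by 1.18 ± 0.18 early and 0.97 ± 0.15 late, and maoc-1, a peroxisomal hydratase gene, rose by 0.69 ± 0.12 late. Of the 9 fatty acid binding proteins, 0 rose and 2 fell early and 1 rose and 1 fell late, with lbp-8 at -1.21 ± 0.30 early. Of 5 genes of phosphatidylcholine synthesis, 1 was lower early (pmt-2, -0.19 ± 0.06) and 0 were called late by edgeR, DESeq2 or limma, where 2 had an unadjusted p below 0.05. Of 6 tested genes of triglyceride storage, 1 was lower early, and 1 was higher and 1 lower late. They were plin-1, the perilipin of lipid droplets, at -0.36 ± 0.08 early and -0.30 ± 0.08 late, and dgat-2, an acyltransferase gene for triglyceride, at 0.62 ± 0.16 late.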

How the data were processed

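Per the labels' protocols, RNA extracted in Tri-Reagent lost its ribosomal RNA by Ribo-Zero, and ScriptSeq v2 made the libraries. The authors deposited raw read counts per gene for 20182 genes. Aligner, counter and genome build are not given in the sources used here. The authors also deposited log2 values, which on checking equalled the log2 of the count scaled to a common total plus 8. Main values rest on the counts. The log2 values, set to 1 total, served as an alternative. Nothing says that libraries came from separate cultures, so p-values measure only the spread between these samples.

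Tested were the 13295 genes that averaged at least 1 CPM across the 40 libraries from 18 to 36 h. edgeR 4.0.16 in R 4.3.3 (TMM, quasi-likelihood) was fitted with the hour, which the labels give and which pairs the strains' libraries, as a block, and a term per mutant and window (16 columns, 24 residual degrees of freedom, common dispersion 0.0178). P-values were adjusted over all genes tested (Benjamini-Hochberg, threshold 0.05). Log2 CPM levels, and the hourly differences taken from them, used a prior count of 2. Scripts were tested on simulated data. Alternatives used DESeq2 1.42.0, limma 3.58.1, other scalings, filters, periods and ages, and left out each hour. Symbols came from the reference tables for 18778 IDs, coordinates from the Ensembl annotation of WBcel235. opt-2, listed as an intestinal marker, matched no row. Members and lists were chosen with earlier results of these data known. All members were named, and of each other list at most 3 called genes with the smallest p per comparison.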

Additional observations from a re-analysis of the deposited data

Results flagged for a closer look

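In 15 of 54 sets of 5 hourly differences from N2 (9 members, 3 mutants, 2 windows), 1 hour stood apart by Dixon's test, which flags about 1 in 20 sets by chance. Sets that share an N2 library are not independent. 7 of the 15 were at 22 h and are differences of let-7(n2853) or the double mutant from the same N2 library. In let-7(n2853) at 22 h the log2 difference was -0.22 for fat-1 (others 0.02 to 0.09), -0.50 for fat-2 (others -0.04 to 0.13), -0.61 for fat-3 (others 0.11 to 0.39) and -0.64 for fat-6 (others -0.11 to 0.08). In the double mutant at 22 h it was -0.22 for elo-1 (others -0.01 to 0.06), -0.57 for fat-3 (others -0.01 to 0.20) and -0.51 for fat-6 (others 0.22 to 0.45). N2 at 22 h was also the N2 library with 37.7 CPM of fat-5, above its neighbours.

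At 24 h lin-41(xe11) stood above N2 by 0.30 for elo-1, 0.31 for elo-2 and 0.40 for fat-1, against highest values of -0.03, -0.18 and 0.07 at the other early hours. In let-7(n2853) at 34 h fat-5 differed by -1.83, with 17.3 CPM in let-7(n2853) and 61.5 CPM in N2, and the other late hours gave -0.08 to 0.52. In the double mutant elo-2 differed by -0.21 at 28 h (others 0.07 to 0.13), elo-5 by 0.48 at 32 h (others -0.29 to -0.11), fat-1 by 0.30 at 34 h (others 0.03 to 0.09) and fat-4 by -0.21 at 36 h (others 0.13 to 0.17).

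The late effects of let-7(n2853) and of the double mutant differed by test for 3 members. The double mutant minus let-7(n2853) was 0.53 for elo-1, 0.19 for fat-1 and -0.33 for elo-2 (edgeR, adjusted p = 5.83e-06, 0.0257 and 0.0377).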

How the results depend on the processing

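Of 1782 values of members in strain comparisons under the alternatives, 1739 stayed on their side of the threshold, 19 lost a call, 17 gained one and 7 reversed. Of the 1739, 157 changed sign without being called in either fit, among them late fat-5 in let-7(n2853), which ran from -0.45 to 0.19 over the hours left out. For early let-7(n2853) against N2, where 1 member was called, the fit with no replicate block (hours not paired) called 0 and scaling to the intestinal markers 5. For the late window, where 2 were called, no replicate block, age in place of the hour and the compared strains only each called 1, limma 4, intestinal scaling 6, and leaving out an hour 1 to 3. For the double mutant against let-7(n2853), where 3 were called, no replicate block and age each called 1, intestinal scaling 7 and leaving out an hour 2 to 4. Intestinal scaling reversed fat-2 early (0.24) and fat-1 late (0.19) in let-7(n2853), and fat-1 (-0.22), fat-2 (-0.33), fat-4 (-0.39) and fat-6 (-0.34) in the double mutant against let-7(n2853). That scaling moved the median of all genes to 0.31 early and 0.25 late in let-7(n2853), and to -0.43 between the double mutant and let-7(n2853). Late elo-2 is counted as reversed with age by its sign alone, since it was -0.052 ± 0.22 and not called (edgeR, adjusted p = 0.915). The share of calls that were higher in let-7(n2853) was 47.4% early and 45.3% late, 70.5% and 69.0% by limma, 96.97% and 94.1% with intestinal scaling and 61.0% early without the filter. Between the double mutant and let-7(n2853) it was 50.3%, 23.8% by limma and 1.43% with intestinal scaling. Apart from no replicate block, the share of all genes called under these alternatives is not given here. The members' counts under them therefore cannot be read against a background. All genes called were 2462, 3064 and 3060 in these 3 comparisons, 505, 566 and 695 with no replicate block. The cause was not tested.

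Trends were called for 2 members without the filter in let-7(n2853) and in the double mutant, and with the hour alone for 1, 0 and 1 in lin-41(xe11), the double mutant and N2. Leaving out an hour gave 1 to 2, 1 to 3, 0 to 2 and 2 to 3 members with a trend and 5 to 7, 3 to 7, 0 to 4 and 0 to 4 with a rhythm in let-7(n2853), lin-41(xe11), the double mutant and N2. A period of 9 h gave 0 rhythms in let-7(n2853), lin-41(xe11) and N2, a period of 7 h 0 in lin-41(xe11) and N2, and no filter 1 in N2. The share of all genes called under these alternatives is not given here either. For the ratio of elo-2 to elo-1, the mean log2 difference of lin-41(xe11) from N2 ran from -0.119 to -0.0693 over the hours left out. fat-7, with 0 to 62 counts, is limited by depth.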
